A study of Mus musculus with 6 samples.

Results

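The genes described here are 7 voltage-gated sodium channel alpha subunits, Scn1a, Scn2a, Scn3a, Scn8a, Scn9a, Scn10a and Scn11a, taken as a named family from the 18193 genes that the arrays measured. All probe sets carrying 1 of these symbols were used, 21 of 45037, and for each gene the probe set with the highest mean value led. Each of 6 Affymetrix arrays measured RNA from 1 pool of sensory neurons of mouse dorsal root ganglia. Control pools, coded L3-B, were made of 50 neurons. Pools coded L3-S or L6-R were made of 20 neurons traced with DiI, a membrane dye that travels from nerve endings to the soma. Each of the 3 title codes was represented by 1 pool of big diameter neurons and 1 pool of medium to small diameter neurons, so that no combination was replicated. The sources used here do not give strain, age, sex, number of animals, the site of the DiI or the meaning of the codes. The 20-neuron pools are all DiI labelled and the 50-neuron pools all controls, so label and pool size cannot be told apart.

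A voltage-gated sodium channel is built around 1 alpha subunit, which forms the pore, senses voltage and carries the upstroke of the action potential. Sensory neurons of the dorsal root ganglion combine channels that the pufferfish poison tetrodotoxin blocks, such as Nav1.1, Nav1.6 and Nav1.7, with the tetrodotoxin-resistant channels Nav1.8 and Nav1.9 of nociceptors, the neurons that detect painful stimuli. Large myelinated-fibre neurons are known for Nav1.1 and Nav1.6, small nociceptors for Nav1.7, Nav1.8 and Nav1.9, and Nav1.3 is known as a channel of embryonic and injured neurons.

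Signals are the deposited linear intensities, differences are those of log2(signal + 32), and signals under 32 lie near the background of such arrays. A difference is given with its standard error (SE) from limma, with title code and size class fitted to 6 arrays, and p-values are adjusted over 9097 genes and called under 0.05. These p-values reflect only how the pools spread around an additive fit, a spread that may be technical, and an exact permutation test of 2 arrays against 2 cannot go below p = 0.333. In bulk RNA, fewer cells of a type and less RNA per cell cannot be told apart. The ratio of 3' to 5' Actb signal, a measure of how complete the RNA was, ran from 3.73 to 13.9 over the arrays and did not follow the title codes. All 8 measured markers of sensory neurons (among them Isl1, Avil and Prph) had signals of at least 975 in every array.

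Of the 7 alpha subunits, 5 passed the filter on dim genes (the upper 50% of genes by mean value) and were tested. Scn1a was lower and Scn10a higher in L6-R than in L3-B, and these were the 2 of 5 members past the threshold in that comparison, against 7.51% of all genes tested (4.66% higher and 2.85% lower). Scn9a was higher in L6-R than in either other code in both size classes, with adjusted p = 0.0744 against L3-S. Scn8a and Scn11a passed in no comparison, and Scn2a and Scn3a stood near or under background.

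**Figure D1:**
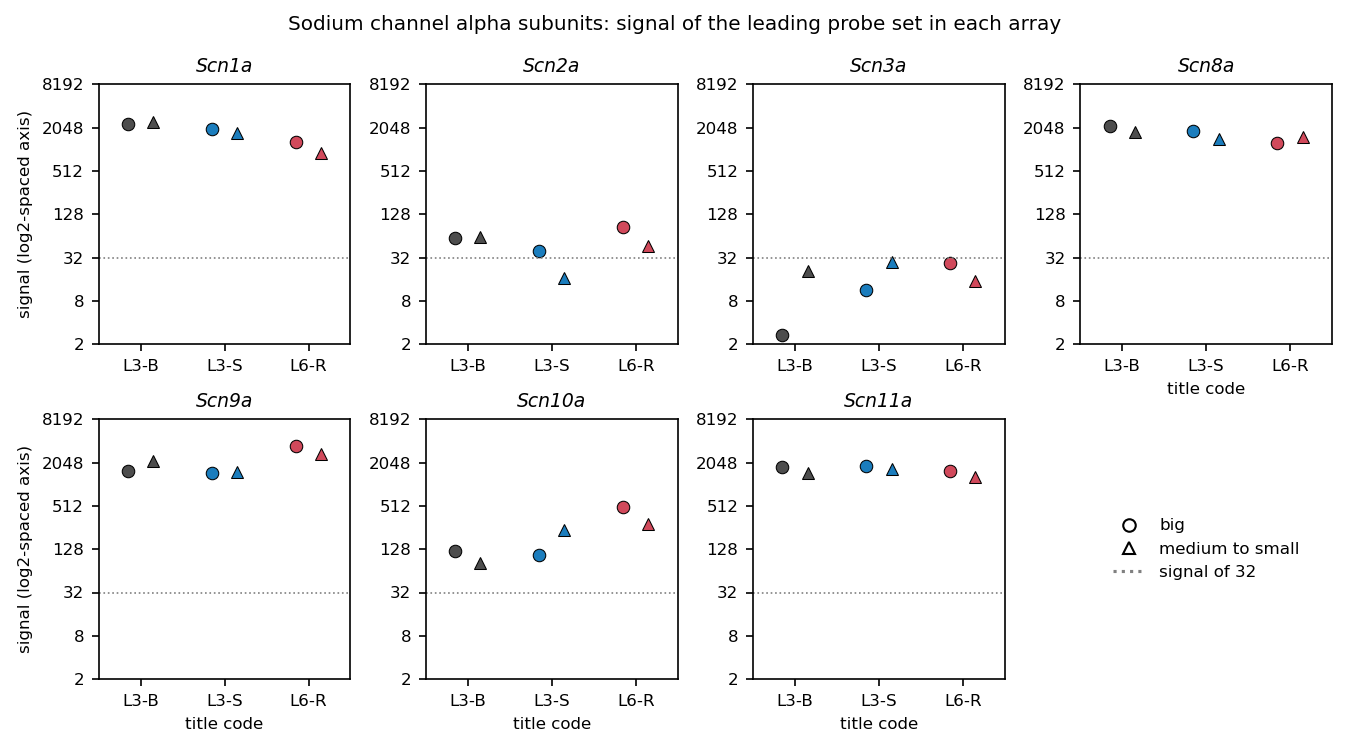
Signal of the leading probe set of each alpha subunit (vertical axis, log2-spaced) in the 6 arrays, by title code (horizontal axis and colour) and size class (circles, big; triangles, medium to small), with a dotted line at 32. The L6-R arrays have the lowest Scn1a signals (1296 and 923) and the highest Scn9a (3535 and 2739) and Scn10a (490 and 287) signals, and all Scn3a signals lie under 32.

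Scn1a encodes Nav1.1, a tetrodotoxin-sensitive channel of fast-firing neurons. Its leading probe set had signals of 2336 and 2435 (L3-B; the big array comes first throughout), 1960 and 1754 (L3-S) and 1296 and 923 (L6-R). The codes did not overlap and ran in the order L3-B, L3-S, L6-R. Scn1a fell by 1.10 ± 0.24 log2 in L6-R against L3-B (SE, n = 2 arrays per code, 95% interval -1.64 to -0.56, limma adjusted p = 0.0268) (a point estimate of 2.15-fold). Between the big arrays the difference was -0.83 and between the medium to small arrays -1.37. Against L3-S the difference was -0.74 ± 0.24 (95% interval -1.28 to -0.21, adjusted p = 0.153), and L3-S stood at -0.36 ± 0.24 against L3-B (95% interval -0.89 to 0.18, adjusted p = 0.730). The call against L3-B was lost when 1 of 3 arrays was left out: L3-B medium to small (-0.91), L6-R big (-1.32) or L6-R medium to small (-0.89). It was also lost with a pseudocount of 1 (adjusted p = 0.0591), with no filter on dim genes (adjusted p = 0.0613) and when every probe set was tested (adjusted p = 0.121).

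The probe sets of Scn1a did not all move alike. The second probe set ran from 946 and 1135 in L3-B through 945 and 858 in L3-S to 645 and 541 in L6-R, a difference of -0.78 between L6-R and L3-B. The third and dimmest had signals of 105 and 267 (L3-B), 173 and 199 (L3-S) and 230 and 152 (L6-R), a difference of 0.12. With the mean of the 3 probe sets the difference between L6-R and L3-B was -0.59 and did not pass (adjusted p = 0.228).

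Scn8a encodes Nav1.6, the main channel of nodes of Ranvier in myelinated axons. Its leading probe set had signals of 2174 and 1779 (L3-B), 1851 and 1441 (L3-S) and 1264 and 1516 (L6-R). Both L6-R arrays were below both L3-B arrays, and L3-S overlapped with each of the others. Scn8a stood at -0.50 ± 0.24 in L6-R against L3-B (95% interval -1.06 to 0.06, adjusted p = 0.287), at -0.26 in L3-S against L3-B (95% interval -0.82 to 0.30) and at -0.23 in L6-R against L3-S (95% interval -0.79 to 0.33). The first of these was -0.21 without the L6-R big array and -0.78 without the other L6-R array. All 4 of its probe sets with signals above 32 in every array were lower in L6-R than in L3-B, by differences from -0.87 to -0.28. The probe set with the difference of -0.87 had signals of 1345 and 1345 (L3-B), 913 and 1011 (L3-S) and 809.5 and 645 (L6-R).

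Scn9a encodes Nav1.7, a channel that amplifies small depolarisations at nociceptor endings and whose loss causes insensitivity to pain in people. Its leading probe set had signals of 1545 and 2151 (L3-B), 1449 and 1498 (L3-S) and 3535 and 2739 (L6-R). L6-R lay above all other arrays, and both L3-S arrays lay below both L3-B arrays. The difference between L6-R and L3-S was 1.06 ± 0.26 (n = 2 arrays per code, 95% interval 0.47 to 1.66, limma unadjusted p = 0.00307, adjusted p = 0.0744). Between the big arrays it was 1.27 and between the medium to small arrays 0.86. Over 19 alternative analyses this difference ran from 0.73 to 1.37, and it passed in some of them and not in others. Leaving out an L3-B array, whichever it was, gave the same fit of this difference as the arrays of the 2 codes only. Those alternatives are thus 1 analysis and not separate ones. Against L3-B the difference was 0.76 ± 0.26 (95% interval 0.17 to 1.35, adjusted p = 0.132), and L3-S stood at -0.30 against L3-B (95% interval -0.89 to 0.29). Leaving out 1 array at a time moved the difference of 0.76 to between 0.45 (without L3-B big, or without L6-R big) and 1.07 (without the medium to small array of either code).

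The leading Scn9a probe set is of a design (its name ends in _x_at) that can bind more than 1 transcript. The next had signals of 881.5 and 1621 (L3-B), 1161 and 1235 (L3-S) and 2165 and 2152 (L6-R), and the fourth brightest had 556 and 1121, 812 and 743, and 1712 and 1455. These were 0.83 and 0.99 log2 higher in L6-R than in L3-S. The remaining one, which the platform annotation pairs with the same source sequence as the leading probe set, had signals of 1278 and 967 (L3-B), 1097 and 989 (L3-S) and 1517 and 1016 (L6-R), a difference of 0.25. All 4 were thus higher in L6-R than in L3-S, and the last Scn9a probe set was near background (24 to 53).

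**Figure D2:**
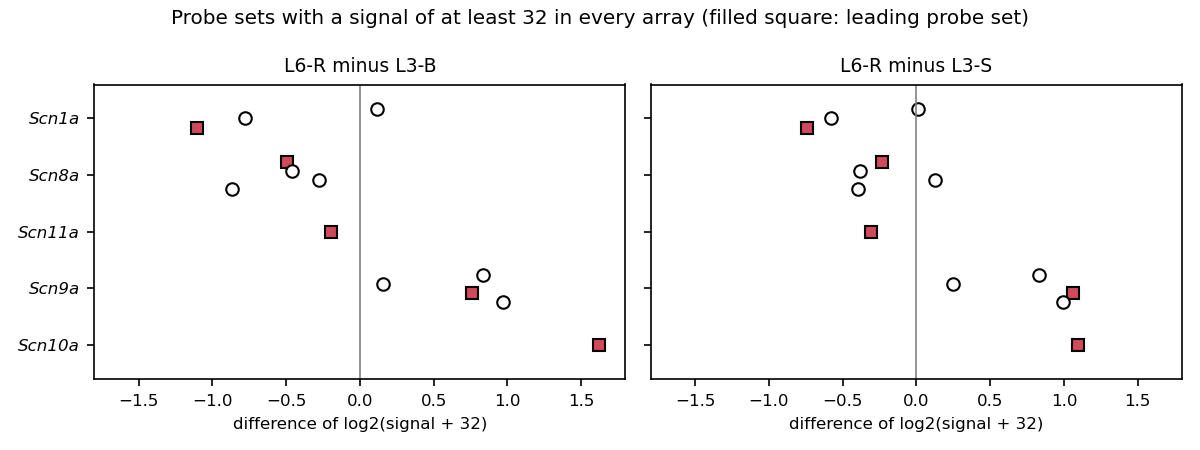
Differences of log2(signal + 32) between L6-R and L3-B (left) and L6-R and L3-S (right) for the 13 probe sets of the 5 tested alpha subunits whose signals were at least 32 in every array; filled squares are the leading probe sets and open circles the others. All 4 Scn9a probe sets lie above 0 in both panels, all 4 Scn8a probe sets lie below 0 in the left panel, and 1 of the 3 Scn1a probe sets lies at 0.12 in the left panel, away from the other two.

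Scn10a encodes Nav1.8, the tetrodotoxin-resistant channel that carries most of the inward current of a nociceptor's action potential, and was measured by 1 probe set. Its signals were 121 and 83 (L3-B), 105 and 236 (L3-S) and 490 and 287 (L6-R). Both L6-R arrays lay above the other 4, and L3-S overlapped with L3-B. Scn10a rose by 1.62 ± 0.38 log2 in L6-R against L3-B (n = 2 arrays per code, 95% interval 0.76 to 2.48, limma adjusted p = 0.0375) (a point estimate of 3.08-fold). Between the big arrays the difference was 1.77 and between the medium to small arrays 1.47. Against L3-S the difference was 1.09 ± 0.38 (95% interval 0.23 to 1.95, adjusted p = 0.192), and it was uneven, with 1.93 in the big pair and 0.25 in the medium to small pair. L3-S stood at 0.53 ± 0.38 against L3-B (95% interval -0.33 to 1.39), with -0.16 in the big pair and 1.22 in the medium to small pair.

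The call of Scn10a against L3-B was lost without the L3-B medium to small array (1.35) and without the L6-R big array (1.13). It was also lost with quantile normalization (adjusted p = 0.0516), with the mean of each gene's probe sets (adjusted p = 0.0647), with a pseudocount of 1 (adjusted p = 0.0758), with no filter on dim genes (adjusted p = 0.114) and when every probe set was tested (adjusted p = 0.226). Scn10a was not among the brightest 25% of genes and so had no value under that filter. Against L3-S the difference passed once the medium to small array of L3-S was dropped (1.86, adjusted p = 0.00383), an array in which Scn10a was higher than in the L3-S big array. It shrank to 0.32 (adjusted p = 0.823) when the L3-S big array was dropped and to 0.60 (adjusted p = 0.915) when the L6-R big array was dropped.

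Scn11a encodes Nav1.9, a tetrodotoxin-resistant channel of nociceptors that opens near the resting potential, and was also measured by 1 probe set. Its signals were 1759 and 1478 (L3-B), 1843 and 1662 (L3-S) and 1551 and 1275 (L6-R). Both L6-R arrays were below both L3-S arrays, and L3-B overlapped with each of the others. The differences were -0.19 ± 0.22 for L6-R against L3-B (95% interval -0.69 to 0.30), -0.31 ± 0.22 for L6-R against L3-S (95% interval -0.81 to 0.19) and 0.12 ± 0.22 for L3-S against L3-B (95% interval -0.38 to 0.61). Scn11a thus varied least of the 5 tested members over the 6 arrays, with a range of 0.52 log2 against 0.77 for Scn8a, 1.27 for Scn9a, 1.37 for Scn1a and 2.19 for Scn10a. Of all genes tested, 22.8% had a smaller range than Scn11a and 96.7% a smaller range than Scn10a.

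Scn2a and Scn3a, the alpha subunits Nav1.2 and Nav1.3 best known from the central nervous system, were not tested. The leading Scn2a probe set had signals of 60 and 61 (L3-B), 39 and 16.5 (L3-S) and 87 and 47 (L6-R). The other 3 Scn2a probe sets stood between 0.352 and 77. The leading Scn3a probe set stood between 2.66 and 27.6 and the other between 3.46 and 17.6, all under 32. At these signals a difference between the pools was not detectable for Scn3a, and no fold is given for either gene.

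**Figure D3:**
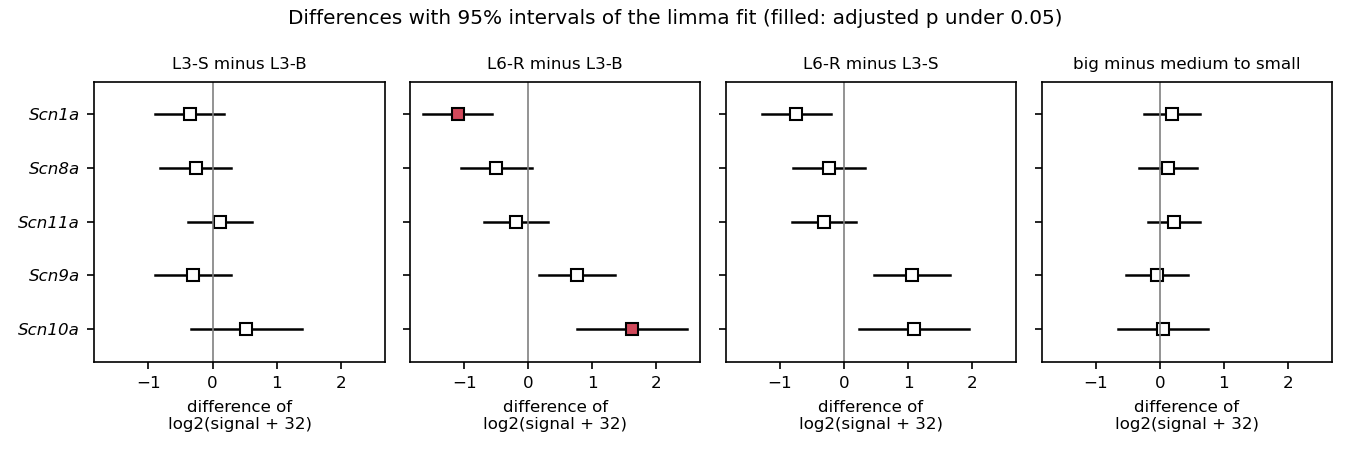
Differences of log2(signal + 32) with 95% intervals from the limma fit for the 5 tested alpha subunits (rows) in 4 comparisons (panels); filled squares passed an adjusted p of 0.05. Only Scn1a (-1.10) and Scn10a (1.62) in L6-R against L3-B are filled, and all size class intervals include 0.

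The members did not all differ in 1 direction between the codes. In L6-R against L3-B, 2 of 5 members passed and the median difference over the 5 was -0.19, against 0.02 over all genes tested. By leading probe set, the arrays of the 2 codes did not overlap for 4 of the 5 (Scn9a and Scn10a higher, Scn1a and Scn8a lower). Neither did they for 49.8% of all genes (25.8% higher, 24.1% lower). The Scn9a probe set with 1517 and 1016 in L6-R did overlap, as did the dimmest Scn1a and Scn8a probe sets above 32 in every array. These Scn1a and Scn9a probe sets also overlapped between L6-R and L3-S. In L6-R against L3-S, 0 of 5 passed in limma with 3 at an unadjusted p under 0.05 (Scn1a, Scn9a and Scn10a), beside 3.18% of all genes called and 1422 of 9097 genes at that unadjusted p; 4 of 5 did not overlap (Scn9a and Scn10a higher, Scn1a and Scn11a lower), beside 52.6% of all genes (25.3% higher, 27.3% lower). In L3-S against L3-B, 0 of 5 passed, 0 at an unadjusted p under 0.05, beside 1.02% of all genes called and 924 of 9097 genes at that unadjusted p. The leading probe sets of Scn1a and Scn9a did not overlap, both lower in L3-S, beside 38.5% of all genes (16.1% lower). The other Scn9a probe sets above 32 in every array did overlap there, with differences of 0.00081, -0.02 and -0.09. So did the dimmest Scn1a probe set (0.11). For the mean of both DiI codes against L3-B, 0 of 5 passed, with 2 at an unadjusted p under 0.05, beside 4.31% of all genes called and 1520 of 9097 genes at that unadjusted p; only Scn1a did not overlap (lower), beside 22.1% of all genes (9.28% lower). Scn10a stood at 1.08 there (95% interval 0.33 to 1.82, adjusted p = 0.125) and Scn1a at -0.73 (95% interval -1.20 to -0.26, adjusted p = 0.0958). Without the L3-S big array Scn10a passed in that comparison (1.46), as it did with the medium to small array of L6-R dropped (1.32). It shrank to 0.69 (adjusted p = 0.150) with the medium to small array of L3-S dropped and to 0.80 (adjusted p = 0.344) with that of L3-B dropped. The comparisons with L3-B share its arrays and are not independent of each other.

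Size class separated none of the members. In big against medium to small, 0 of 5 passed in limma, 0 at an unadjusted p under 0.05, and 0 of 5 did not overlap, beside 0% of all genes called, 320 of 9097 genes at an unadjusted p under 0.05 and 5.03% of all genes not overlapping. Scn11a was higher in the big array of each of the 3 codes, by 0.25, 0.15 and 0.28 log2 in L3-B, L3-S and L6-R (mean difference 0.22 ± 0.18, 95% interval -0.18 to 0.63). Scn1a stood at 0.19 (95% interval -0.25 to 0.63), Scn8a at 0.13 (95% interval -0.33 to 0.58), Scn9a at -0.05 (95% interval -0.53 to 0.43) and Scn10a at 0.05 (95% interval -0.65 to 0.76). The sign differed between codes for Scn1a, Scn8a, Scn9a and Scn10a.

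Markers of neuron types and of other cells also differed between the codes. Of all genes tested, 7.51% were called in L6-R against L3-B (4.66% higher, 2.85% lower) and 3.18% in L6-R against L3-S. Of 12 tested markers of large myelinated-fibre neurons, 3 were lower in L6-R than in L3-B (Pvalb, Ntrk3 and Vamp1) and 0 higher. The summed signal of this list was 55730 to 65660 in L3-B, 51780 to 59050 in L3-S and 41790 to 50880 in L6-R. Nefh, Nefm and Nefl made up most of these sums. They stood at -0.31, -0.04 and 0.08 in L6-R against L3-B and were not called. Of 8 tested markers of peptidergic nociceptors, 6 were higher in L6-R than in L3-B, and the sum was 1983 to 4223 in L3-B, 4797 to 5396 in L3-S and 8722 to 10280 in L6-R. Sums of linear signal rest on the brightest genes of a list. Calcb made up most of the L3-B sums (3922 and 1755) and stood at 0.03 in L6-R against L3-B. Tac1 had signals of 5435 and 4090 in L6-R. Of 10 tested markers of satellite glia and Schwann cells, 5 were higher in L6-R than in L3-B (Apoe, Mbp, Sox10, Mal and Fabp7). The sums of this list were 10230 to 11430 in L3-B, 12330 to 16560 in L3-S and 13640 to 19600 in L6-R. S100b made up most of the L3-B sums (6832 and 5546). In L6-R against L3-B it stood at -0.29 and Cadm4 at -0.65, and neither was called. Of these glial markers 1 (Pmp2) was under 32 in every array and none was at 0. Connective tissue and vessel markers summed to 337 to 441 in L3-B, 1474 to 1553 in L3-S and 1087 to 1935 in L6-R, with 3 of 4 tested higher in L6-R than in L3-B. Most of the L3-S sums came from Rgs5 (824 and 977). Of 7 tested markers of non-peptidergic and itch neurons, 3 were higher in L6-R than in L3-B, with sums of 6553 to 7059 in L3-B, 6170 to 6813 in L3-S and 8319 to 11080 in L6-R. Set beside L3-S, 5 of the 8 peptidergic markers were higher and 1 lower in L6-R, 4 of the 12 large-fibre markers were lower, and 0 of the glial and connective tissue markers passed. In L3-S against L3-B the only large-fibre marker called, Pvalb, was higher in L3-S (1.81, limma adjusted p = 0.0435). Its signals were 723 and 756 (L3-B), 2084 and 3413 (L3-S) and 69 and 32 (L6-R). There 3 peptidergic, 2 non-peptidergic and itch, 1 glial and 1 connective tissue and vessel marker were also higher and 0 lower, beside 1.02% of all genes called. Of 8 measured markers of blood and immune cells, 6 were under 32 in every array. The part of these markers in the differences of Scn1a, Scn9a and Scn10a was not tested.

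Auxiliary proteins of the channel were read from 5 lists with 26 genes, of which 21 had a probe set of their own and 19 were tested. In L6-R against L3-B 2 of the 19 were higher and 0 lower, beside 4.66% of all genes tested higher and 2.85% lower. Both were beta subunits, which modulate gating and surface density of the alpha subunit. Scn3b had signals of 83 and 60 (L3-B), 263 and 554 (L3-S) and 662.5 and 514 (L6-R), and rose by 2.58 ± 0.34 (adjusted p = 0.00323). Scn2b had signals of 178.5 and 79, 450 and 687, and 975 and 512.5, and rose by 2.27 ± 0.36 (adjusted p = 0.00757). In L3-S against L3-B, Scn3b rose by 2.01 (adjusted p = 0.0353) and Scn2b stood at 1.94 (adjusted p = 0.0534). Scn4b, the third beta subunit measured, stood at -0.14 in both comparisons. Within L3-S, Scn2b and Scn3b shared with Scn10a a higher signal in the medium to small array, and within L3-B and L6-R all 3 genes were higher in the big array. Ank3, Fgf12, S100a10 and Csnk2a1 of the same lists had these directions too, so the pattern was not particular to the beta subunits and Scn10a.

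The other auxiliary and related genes did not pass in any of the 5 comparisons. Among 3 tested intracellular fibroblast growth factor homologues, which bind the channel's tail and shift its inactivation, Fgf13 stood at 0.62 (adjusted p = 0.168) and Fgf12 at -0.52 (adjusted p = 0.340) in L6-R against L3-B, and at 0.55 and -0.44 against L3-S. Among 5 tested anchors of the axon initial segment and node, the adhesion protein Nfasc had signals of 954 and 1187 (L3-B), 1034 and 812 (L3-S) and 560 and 530 (L6-R). In L6-R against L3-B, Nfasc stood at -0.93 (limma adjusted p = 0.0572) and the spectrin Sptbn4 at -0.50 (adjusted p = 0.235). Ank3 went the other way, at 0.79 (adjusted p = 0.251), and Cntn1 stood at -0.10. Against L3-S, Ank3 also stood at 0.79 in L6-R. Nrcam, another node adhesion protein, had signals of 2528 and 1813 (L3-B), 1324 and 958 (L3-S) and 2437 and 1992 (L6-R). Nrcam stood at 0.95 in L6-R against L3-S (limma adjusted p = 0.0621) and at -0.91 in L3-S against L3-B (adjusted p = 0.119). In L6-R against L3-B it stood at 0.04. Among 6 tested genes of channel trafficking and turnover, the ubiquitin ligase Nedd4l stood at 0.64 (adjusted p = 0.166) and Dpysl2 at -0.40 (adjusted p = 0.346) in L6-R against L3-B, and against L3-S Nedd4 stood at 0.80 and Pdzd2 at -0.61 in L6-R. Of the remaining list, the sodium leak channel Nalcn stood at -0.33 and the alpha-subunit relative Scn7a, a sodium sensor, at -0.21 in L6-R against L3-B.

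Scn1a and Scn9a lie next to each other on chromosome 2, with 0 protein-coding genes between them in the RefSeq gene table (assembly GRCm38.p6), and in L6-R against L3-B they stood at -1.10 and 0.76 log2. Scn7a follows Scn9a in that cluster, and Scn3a and Scn2a lie side by side with 3 other genes between Scn2a and Scn1a. Scn10a and Scn11a are neighbours on chromosome 9, and Scn8a lies on chromosome 15. To show the sequence in front of the member that fell and of the member that varied least, the 250 bases before the RefSeq start sites of Scn1a and Scn11a are given, read 5' to 3' along the gene, with matches to the E-box motif (CANNTG) in capitals. The windows of Scn9a and Scn10a in the same table lie partly or wholly inside the annotated gene and are not shown.
Scn1a (GRCm38.p6, chr2:66440838-66441087, minus strand): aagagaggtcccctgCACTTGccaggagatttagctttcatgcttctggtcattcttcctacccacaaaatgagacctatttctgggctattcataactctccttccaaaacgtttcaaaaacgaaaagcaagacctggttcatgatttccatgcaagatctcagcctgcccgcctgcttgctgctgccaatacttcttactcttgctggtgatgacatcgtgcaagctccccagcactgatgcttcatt
Scn11a (GRCm38.p6, chr9:119825457-119825706, minus strand): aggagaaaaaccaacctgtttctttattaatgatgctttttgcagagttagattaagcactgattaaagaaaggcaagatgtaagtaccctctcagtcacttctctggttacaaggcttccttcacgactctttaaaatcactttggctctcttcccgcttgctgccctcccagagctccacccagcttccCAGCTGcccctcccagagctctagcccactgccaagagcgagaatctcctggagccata
Each window held 1 E-box match, at position -235 from the start site in Scn1a and at -59 in Scn11a. Of 32817 promoter windows of the same length, 66.2% held this motif on either strand. The GC box (GGGCGG, in 32.7% of windows), the RUNX core (TGTGGT, in 14% of windows), the AP-1 motif (TGANTCA, in 6.75% of windows) and the TATA box (TATAAA, in 12.4% of windows) had 0 matches on either strand in both windows. Their GC contents were 46.8% (Scn1a) and 48% (Scn11a), with 4 and 3 CpG pairs, against medians of 52.4% and 6 over all windows. A match is a description of these letters alone.

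The genes most like Scn1a, Scn9a and Scn10a over the 6 arrays were found among all genes tested, by the root mean square difference of log2(signal + 32) after centring each gene. For Scn1a they were Tnfrsf21, a death-domain receptor (0.0936 log2), B3galt5, a galactosyltransferase (0.0984), and Strbp, an RNA-binding protein (0.103), where the median over all genes was 0.539. Tnfrsf21 had signals of 2423 and 2699 (L3-B), 1847 and 1686 (L3-S) and 1341 and 1041 (L6-R), the same order of codes as Scn1a. For Scn9a they were Mtss1, which links actin to membranes (0.0976), the LIM protein Crip2 (0.116) and the RNA-binding protein Rbm6 (0.130), where the median was 0.540. Crip2 had signals of 1903 and 2492 (L3-B), 2026 and 1634 (L3-S) and 4001 and 3469 (L6-R). For Scn10a they were the membrane protein Tmem176a (0.205), the actin-binding protein Enc1 (0.213) and the transcription factor Tbx2 (0.223), where the median was 0.801. Enc1 had signals of 353.5 and 274.5 (L3-B), 338 and 604 (L3-S) and 1886 and 979 (L6-R), with the medium to small array above the big array in L3-S and below it in L3-B and L6-R, as for Scn10a. All of these genes were picked for lying nearest to the member, so a shared pattern follows from the choice and is not a separate result.

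**Figure D4:**
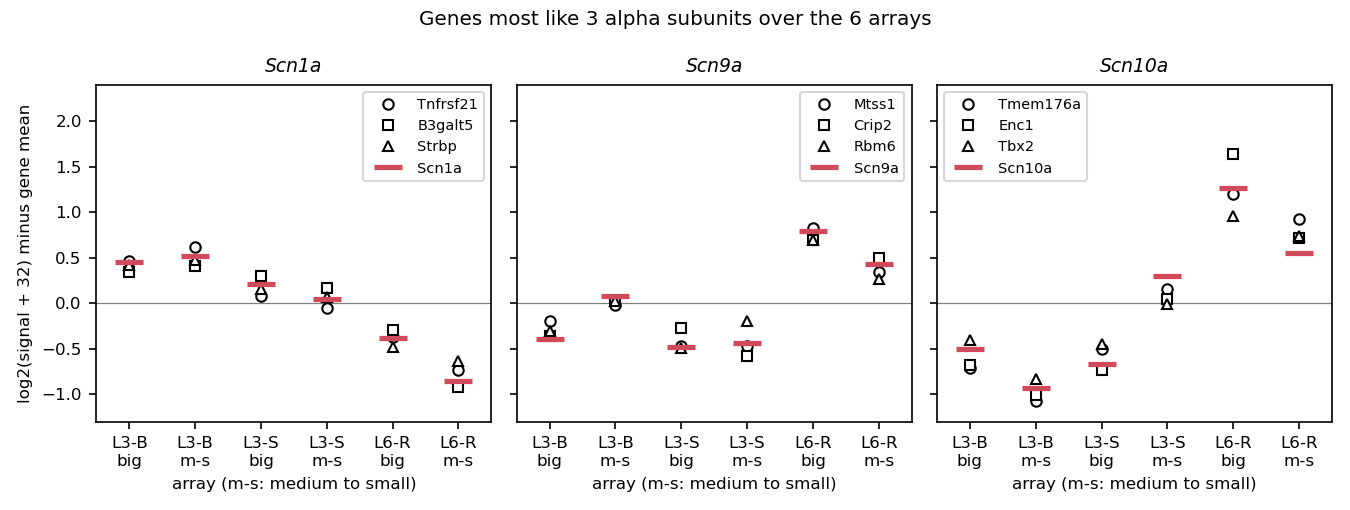
Values of log2(signal + 32), centred on each gene's mean, in the 6 arrays for Scn1a, Scn9a and Scn10a (red bars) and for the 3 tested genes nearest to each (open symbols). In the Scn1a panel all 4 genes are lowest in L6-R, and in the Scn9a and Scn10a panels all 4 are highest in L6-R big.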

How the data were processed

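The authors deposited a table of linear signal intensity for 45037 probe sets and 64 control probe sets on 6 arrays. How probe signals were summarised is not given in the sources used here. Each array's mean was 150.0 once 2% of values were trimmed at either end, and no further normalization was applied. Of the probe sets, 34945 carried 1 gene symbol (platform annotation), 932 several and 9160 none. Values were taken as log2(signal + 32), which shrinks folds of low signals. The brightest probe set (by mean) stood for each of 18193 genes, and the upper 50% of genes (9097, minimum mean 6.41) were tested.

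R 4.3.3 with limma 3.58.1 (lmFit, eBayes; 2 residual and 6.46 prior degrees of freedom, two-sided) fitted title code and size class additively, with Benjamini-Hochberg adjustment. The script was tested on simulated data. With 1 array per code and size class an interaction could not be fitted. The members, lists and comparisons were chosen with earlier results of these data known. All 7 members were named by rule, with up to 2 genes per list by smallest p, and for members spanning at least 1 log2 the 3 nearest genes. Some further listed genes are named to show the directions within a list. Listed genes with no probe set of their own (5 of the 26 auxiliary and related genes) are not analysed here. Promoter sequences are from RefSeq (GRCm38.p6), with windows for 6 of the 7 members. Alternatives were smaller and larger pseudocounts, quantile normalization, other filters and probe set rules, a variance trend, array weights, the Actb ratio as a covariate, other sets of arrays or terms, and leaving out each array.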

Additional observations from a re-analysis of the deposited data

Results flagged for a closer look

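The size difference of Scn10a went in opposite directions in different codes. Big minus medium to small was 0.42 log2 in L3-B, -0.97 in L3-S and 0.71 in L6-R, with 1 pair of arrays in each code. The difference between codes was not tested, since with 1 array for each code and size class an interaction leaves no residual. The same arrays had Actb 3' to 5' ratios of 13.9 and 3.73 (L3-B, big then medium to small), 5.42 and 12.0 (L3-S) and 8.31 and 8.42 (L6-R); the part of RNA completeness in this pattern was not tested.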

How the results depend on the processing

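Each of 25 member differences was recomputed under 17 to 19 alternatives, 460 values in all: 414 kept direction and side of the threshold, 14 kept direction and lost the call, 16 kept direction and gained one, and 16 changed sign. The counts of members past the threshold for size class and for L3-S against L3-B were 0 throughout.

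For L6-R against L3-B the count of 2 (Scn1a and Scn10a) became 0 with no filter on dim genes, a pseudocount of 1, the mean of probe sets or every probe set tested. It became 1 (Scn1a) with quantile normalization and with the upper 25% filter, under which Scn10a was not tested. It rose to 3 with the Actb ratio as a covariate, which added Scn9a (adjusted p = 0.0202). Leaving out each array in turn gave 0 to 2. For L6-R against L3-S the count of 0 became 1 (Scn9a) with a larger pseudocount, a variance trend, array weights, no size class term, or the arrays of the 2 codes only, and 3 with the Actb ratio as a covariate (Scn1a, Scn9a and Scn10a). Leaving out each array gave 0 to 1. For DiI against L3-B the count of 0 became 2 with the Actb ratio as a covariate (Scn1a and Scn10a), and leaving out each array gave 0 to 1. With 1 residual degree of freedom the fit with the Actb ratio rests on few arrays. The alternatives are not all separate fits, so the tally above holds repeats. For a difference between 2 codes, leaving out an array of the third code gives the same fit as the arrays of the 2 codes only. For size class, leaving out either array of a code gives the same fit.

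The changes of sign were of differences that had not passed. For size class these were Scn1a with the mean of probe sets (-0.010), Scn8a with array weights (-0.027), Scn9a with array weights (0.14), Scn10a with the Actb ratio (-0.042), and, leaving out each array, Scn9a (-0.26 to 0.16) and Scn10a (-0.28 to 0.57). Leaving out each array also turned Scn8a in L6-R against L3-S (-0.52 to 0.054), Scn9a in L3-S against L3-B (-0.62 to 0.012), Scn9a in DiI against L3-B (-0.084 to 0.54) and Scn10a in L3-S against L3-B (-0.24 to 1.30). Scn11a in DiI against L3-B was 0.014 with quantile normalization. Without probe sets of the _x_at and _s_at designs, an alternative chosen after seeing the data, Scn9a in L3-S against L3-B was 0.00081, its difference between L6-R and L3-S was 0.83 (adjusted p = 0.162), and the counts of members did not change. For comparisons between codes the fit is already paired by size class; without that term only the count for L6-R against L3-S changed. The cause of these changes was not tested. The number of arrays limits the precision, and signals near 32 cannot resolve Scn2a or Scn3a.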
